A study of Mus musculus with 4 samples.

Results

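The genes described here are testis forms of proteins that nearly every cell makes. The rule names 10 of them: Slc25a31, Taf7l, Rpl10l, Tuba3a, Tuba3b, Brdt, Nxf2, Ldhc, Pgk2 and Pdha2. Rows with these names were taken from a table of 22138 genes, and 9 were found there. The expression of Rpl10l was not analysed here, and neither was that of Rpl10, its widely expressed counterpart; only their promoter sequences were. RNA was sequenced in 4 libraries of TT2 cells, which are mouse embryonic stem cells (C57BL/6xCBA, labelled female) kept without feeder cells in serum and LIF. Cells received control siRNA (n = 2) or siRNA against Hnrnpk (n = 2), at 100 nM and then at 50 nM 24 hours later, and RNA was taken about 72 hours after the second dose. Hnrnpk encodes hnRNP K, a protein that binds RNA and DNA, and the series title links it to gene silencing by SETDB1, which methylates lysine 9 of histone H3. The cells carry no other change in the labels, and the siRNA lowers the transcript without deleting the gene.

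Male germ cells shut down the X chromosome during meiosis, so X-linked genes of basic metabolism such as Pgk1 and Pdha1 are then silent. Copies elsewhere in the genome, many of them without introns, supply the protein in their place. Other testis forms, such as Brdt and Taf7l, replace general parts of the transcription machinery during sperm formation. In embryonic stem cells many germ cell genes are held silent by DNA methylation, by methylation of lysine 9 of histone H3, and by PRC1.6, a Polycomb complex. The MGA and MAX subunits of PRC1.6 bind the E-box hexamer and its E2F6 subunit binds E2F sites.

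The promoters are shown first because the members that were higher after Hnrnpk siRNA and the pair of tubulin genes differed in the motifs they held. Each sequence is the 250 bases before the annotated start, from RefSeq on GRCm38.p6, and all 10 names had such a window. Capitals mark matches to CACGTG, the E-box hexamer, or to TTCCCGC, an E2F-like heptamer. Both strands were searched, and the motifs do not overlap each other here. Both were chosen after the members' values were known.
Slc25a31 (chr3:40708621-40708870, plus strand): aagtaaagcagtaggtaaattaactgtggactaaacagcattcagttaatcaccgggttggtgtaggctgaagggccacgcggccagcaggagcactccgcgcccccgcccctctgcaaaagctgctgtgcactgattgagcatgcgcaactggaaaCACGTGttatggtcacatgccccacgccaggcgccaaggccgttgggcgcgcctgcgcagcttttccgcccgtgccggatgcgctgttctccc
Taf7l (chrX:134476491-134476740, minus strand): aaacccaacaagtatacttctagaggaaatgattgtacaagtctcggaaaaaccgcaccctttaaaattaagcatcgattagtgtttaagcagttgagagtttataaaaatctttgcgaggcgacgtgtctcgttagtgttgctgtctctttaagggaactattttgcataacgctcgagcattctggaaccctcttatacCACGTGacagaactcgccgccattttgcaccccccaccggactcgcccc
Brdt (chr5:107330944-107331193, plus strand): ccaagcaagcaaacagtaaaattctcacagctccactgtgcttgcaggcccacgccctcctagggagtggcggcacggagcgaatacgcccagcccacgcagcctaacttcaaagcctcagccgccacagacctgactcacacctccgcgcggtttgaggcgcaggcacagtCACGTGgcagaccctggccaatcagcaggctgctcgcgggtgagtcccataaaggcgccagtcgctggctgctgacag
Nxf2 (chrX:134964755-134965004, minus strand): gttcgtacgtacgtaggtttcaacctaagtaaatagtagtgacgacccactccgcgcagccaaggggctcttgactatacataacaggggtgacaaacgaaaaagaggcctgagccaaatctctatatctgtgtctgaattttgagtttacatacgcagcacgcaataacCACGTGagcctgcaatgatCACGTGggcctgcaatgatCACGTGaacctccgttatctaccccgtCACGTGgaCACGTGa
Tuba3a (chr6:125286082-125286331, minus strand): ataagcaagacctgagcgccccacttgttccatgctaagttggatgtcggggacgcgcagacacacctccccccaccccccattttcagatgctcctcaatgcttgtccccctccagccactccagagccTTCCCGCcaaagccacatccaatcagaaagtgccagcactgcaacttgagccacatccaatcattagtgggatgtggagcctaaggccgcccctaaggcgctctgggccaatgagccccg
Tuba3b (chr6:145615713-145615962, plus strand): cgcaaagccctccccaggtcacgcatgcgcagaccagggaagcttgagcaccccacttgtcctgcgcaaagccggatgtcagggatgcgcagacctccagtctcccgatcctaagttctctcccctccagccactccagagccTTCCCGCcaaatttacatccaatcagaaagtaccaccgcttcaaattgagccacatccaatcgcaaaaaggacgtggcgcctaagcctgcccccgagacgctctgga

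An E-box stood in the windows of Slc25a31, Taf7l, Brdt and Nxf2, and in none of the windows of the other 6 genes. It lay at bases -93 to -88 before the start of Slc25a31, -78 to -73 for Brdt and -49 to -44 for Taf7l. The window shown for Nxf2 held 5 E-boxes, the nearest at -7 to -2, and a further Nxf2 start had none. Among all 32851 windows of the same length, 6.02% held an E-box. That share is per window, whereas the members are counted per gene over any of their windows. Per gene, an E-box stood in 917 of the 8803 genes tested below that had a window. The E2F-like heptamer stood in the windows of Tuba3a (-120 to -114), Tuba3b (-107 to -101), Rpl10l (-44 to -38) and the further Nxf2 start, against 3.82% of all windows. Per gene, 750 of the same 8803 genes held it. Neither motif was found in the windows of Ldhc, Pgk2 or Pdha2. Of the 13 counterpart genes that had windows, only Ldha held either motif, and it held both. Rpl10 was among these genes, whereas Taf7 had no window and was not searched. The Tuba3a and Tuba3b windows were 77.5% identical over 218 aligned bases. CpG dinucleotides numbered 18 for Slc25a31, 16 for Brdt, 16 for Nxf2 and 14 for Taf7l in the windows with an E-box. Windows without an E-box overlapped that range, with 14 for Tuba3b, 12 for the further Nxf2 start, 8 each for Tuba3a and Rpl10l, 8 and 3 for Ldhc, 4 for Pdha2 and 3 for Pgk2. Over all windows the median was 6 and the quartiles were 2 and 16. A match is a description of the sequence and does not show that a factor binds there.

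**Figure D1:**
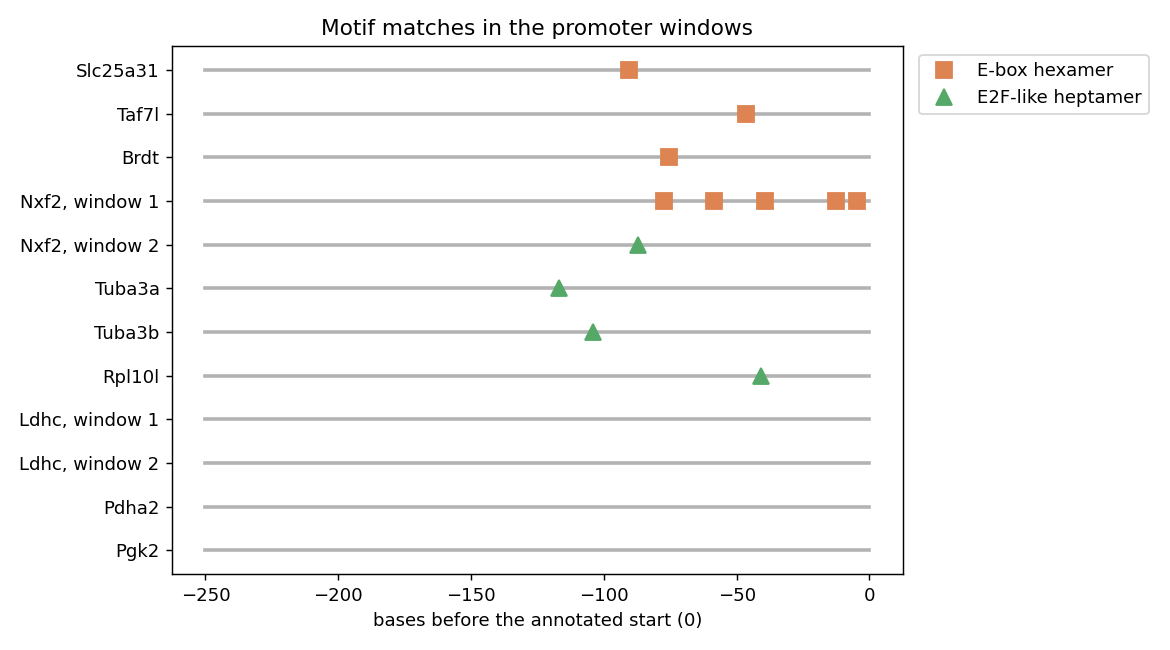
Positions of motif matches (squares: E-box; triangles: E2F-like heptamer, either strand) in the 250 bases before each annotated start, in bases; each line is a window, and Nxf2 and Ldhc have more than 1. E-boxes stand in the windows of Slc25a31, Taf7l, Brdt and Nxf2 only.

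Values are RPKM, reads scaled to transcript length and library size, as the authors deposited them. Among the 10 members, the 9 measured spanned a wide range of levels. In control cells the order by mean RPKM was Tuba3a, Tuba3b, Slc25a31, Ldhc, Taf7l, Brdt, Nxf2, Pdha2 and Pgk2. Ldhc and Taf7l were the only neighbours in that order whose control libraries overlapped. After Hnrnpk siRNA the order was Tuba3a, Slc25a31, Taf7l, Tuba3b, Brdt, Nxf2, Ldhc, Pdha2 and Pgk2, and no neighbours overlapped. Testis is named by the rule, yet Tuba3a stood at 46.9 RPKM or more in control stem cells, while Pgk2 was listed at 0 in both control libraries.

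**Figure D2:**
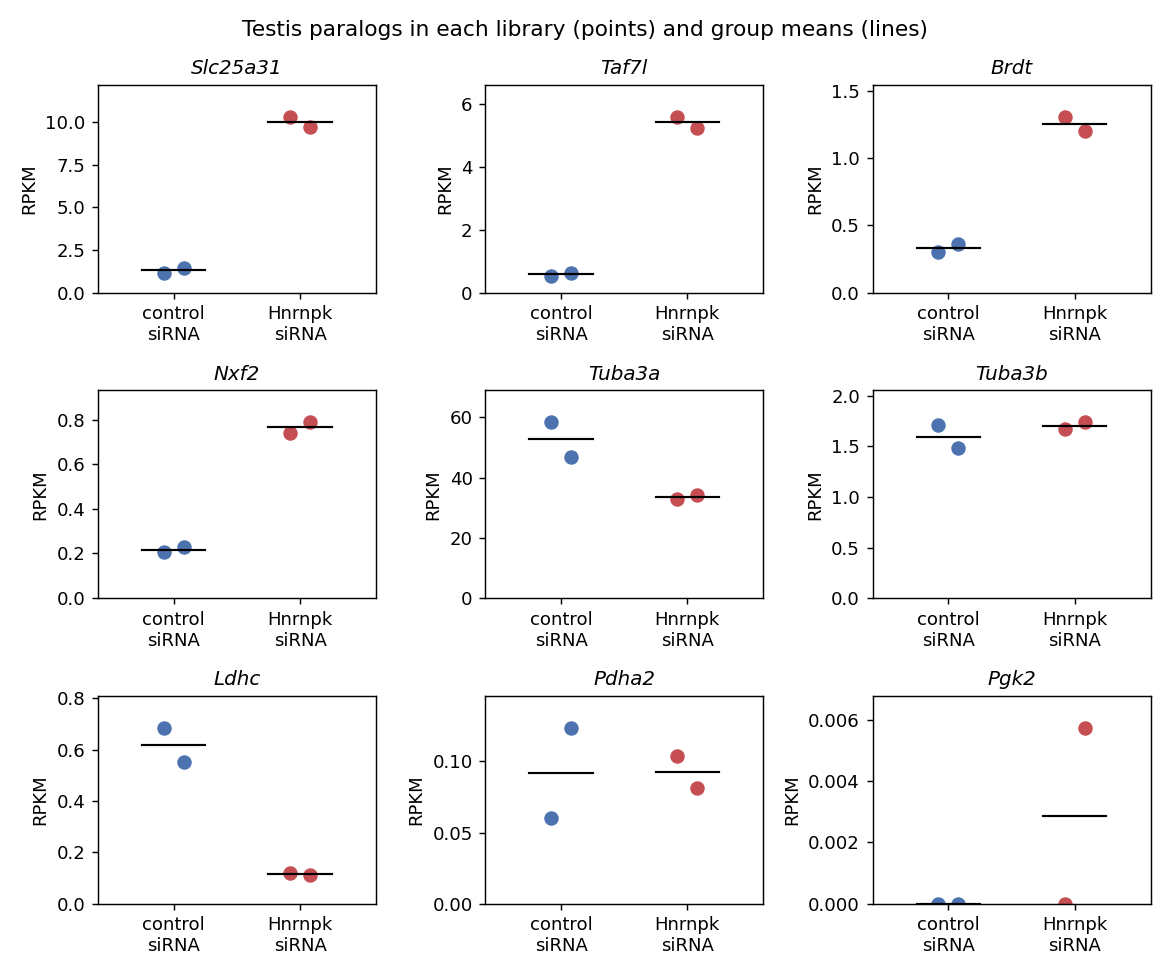
RPKM of each measured testis paralog in the control siRNA (blue) and Hnrnpk siRNA (red) libraries, with 2 points a group, lines at the group means and axes that start at 0. Slc25a31, Taf7l, Brdt and Nxf2 lie higher after Hnrnpk siRNA, Tuba3a and Ldhc lower, and Tuba3b, Pdha2 and Pgk2 overlap.

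Genes were tested with limma on log2(RPKM + 0.5) when their mean over the 4 libraries was at least 0.5 RPKM, and a gene was called when its p, adjusted by Benjamini-Hochberg over 12486 genes, was under 0.05. On that scale the change of a low gene is understated. Hnrnpk itself had 236 and 226 RPKM in control and 68.0 and 70.5 RPKM in Hnrnpk siRNA libraries, a log2 change of -1.73 (SE 0.0629). Depth estimated from the steps between low values was 0.882 to 1 relative to control replicate 1. Over all genes tested 67.2% were called, 32.2% higher and 35.0% lower. Of the 9 members, 5 passed the level filter, and of these 3 were called higher (Slc25a31, Taf7l, Brdt), 1 lower (Tuba3a) and 1 was not called (Tuba3b). Brdt passed the filter only through its level after Hnrnpk siRNA, so its count among the calls is not independent of the filter. The log2 change was at least 1 for all 3 members that were called higher, a size and direction reached by 499 genes, 4.0% of the genes tested. No member was called lower by that much, against 4.52% of the genes tested. Ldhc could not be called, because its mean was 0.619 RPKM in control but 0.116 RPKM in Hnrnpk siRNA libraries. It thus missed the filter through its lower level after Hnrnpk siRNA, so the counts of higher and lower calls both depend on the filter. Nxf2, Ldhc, Pdha2 and Pgk2 lay under the filter, Nxf2 just below it at a mean of 0.491 RPKM over the 4 libraries. The groups did not overlap for 6 of the 9 members, 4 with the Hnrnpk siRNA libraries above and 2 below. Nxf2 and Ldhc, under the filter, were among these 6. Of the 5 members tested, only Tuba3b had overlapping groups, and over all genes tested 84.7% did not overlap.

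**Figure D3:**
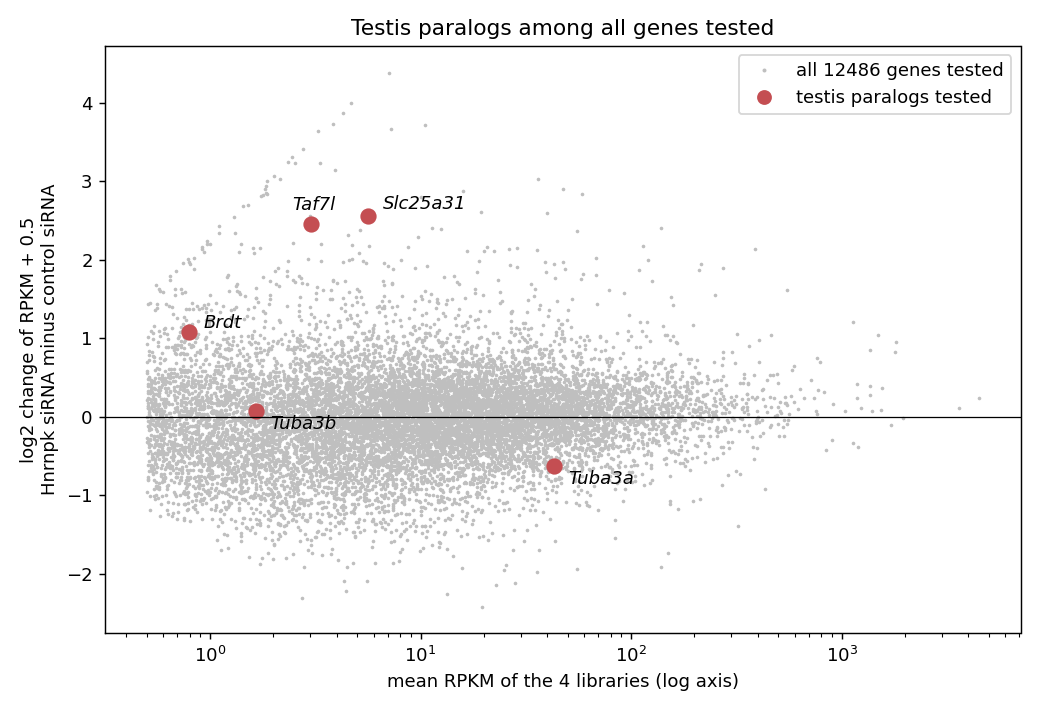
Log2 change of RPKM + 0.5 (Hnrnpk siRNA minus control siRNA) against mean RPKM (log axis) for all 12486 genes tested (grey), with the 5 tested testis paralogs in red. Slc25a31 at 2.55 and Taf7l at 2.45 lie in the upper part of the cloud, and Tuba3b lies near 0.

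The metabolic members went different ways. Slc25a31 encodes the ADP/ATP carrier of the inner mitochondrial membrane that sperm cells use (ANT4). Control libraries held it at 1.17 and 1.43 RPKM, and those with Hnrnpk siRNA at 10.3 and 9.71 RPKM. Both of the latter lay far above the controls, with a ratio of means of 7.70 and ratios of single libraries from 6.78 to 8.82. Its fitted log2 change of 2.55 had an SE of 0.0950 and an adjusted p of 7.72e-08 by limma. In bulk RNA, more cells with a transcript and more transcript per cell cannot be told apart.

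Ldhc, the lactate dehydrogenase subunit of sperm, had 0.686 and 0.551 RPKM in control libraries and 0.120 and 0.112 RPKM in Hnrnpk siRNA libraries. Both Hnrnpk siRNA libraries lay below both controls, and the mean was 5.34 times as high in controls (4.61 to 6.12 over single libraries). By the estimated depth this was 135 and 106 counted units against 20.9 and 19.4. Whether a unit is a read or a read pair could not be settled. Ldhc was too low to be tested under the main filter. With no filter it was called lower, with a log2 change of -0.86 and limma adjusted p = 0.0014.

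Pdha2 and Pgk2 are copies without introns of X-linked enzyme genes. Pdha2, an E1 alpha subunit of pyruvate dehydrogenase, had 0.0599 and 0.124 RPKM in control libraries and 0.104 and 0.0816 RPKM in Hnrnpk siRNA libraries, and the groups overlapped. These values came to 17.5, 35.5, 27 and 21 estimated units, so a small change was not detectable at this depth. Pgk2, the phosphoglycerate kinase of sperm, was listed at 0 in 3 libraries and at 0.00574 RPKM in Hnrnpk siRNA replicate 2, which came to 1.02 estimated units. No response of Pgk2 could be seen in either direction at such levels.

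The members of the transcription machinery both rose. Taf7l, the testis form of the TFIID subunit TAF7, had 0.541 and 0.628 RPKM in control libraries and 5.61 and 5.25 RPKM in Hnrnpk siRNA libraries. Its ratio of means was 9.30 (8.36 to 10.4 over single libraries), above that of Slc25a31, while its log2 change with 0.5 RPKM added was 2.45 (SE 0.0919, limma adjusted p = 7.84e-08). The order of Slc25a31 and Taf7l thus depends on the added value, and with 0.1 RPKM added their log2 changes were 2.86 and 3.02.

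Brdt encodes the testis BET protein, whose bromodomains bind acetylated histones and which is needed for sperm formation. It had 0.299 and 0.364 RPKM in control libraries and 1.308 and 1.203 RPKM in Hnrnpk siRNA libraries, with no overlap. The ratio of means was 3.79 (3.31 to 4.37 over single libraries), and its log2 change of 1.08 had an SE of 0.0991 and an adjusted p of 1.18e-05 by limma. That change was 1.65 with 0.1 RPKM added and 0.76 with 1 RPKM added, and was called in each case, the last with a change under 1. Brdt was not tested with a filter of at least 1 RPKM.

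Nxf2, a germ cell relative of the mRNA export receptor NXF1, had 0.207 and 0.227 RPKM in control libraries and 0.742 and 0.788 RPKM in Hnrnpk siRNA libraries. The groups did not overlap, and the ratio of means was 3.53 (3.27 to 3.82 over single libraries), close in size to that of Brdt. In estimated units this was 65.9 and 71.1 against 211 and 222. With no filter on low values Nxf2 was called higher, with a log2 change of 0.82 and limma adjusted p = 0.000902.

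Tuba3a and Tuba3b encode alpha-tubulins best known from testis. Tuba3a had 58.4 and 46.9 RPKM in control libraries and 33.1 and 34.3 RPKM in Hnrnpk siRNA libraries. The controls were spread more widely than the Hnrnpk siRNA libraries but did not overlap them, and its log2 change of -0.63 had an SE of 0.0942 and an adjusted p of 0.00026 by limma. Tuba3b had 1.71 and 1.48 RPKM against 1.67 and 1.74 RPKM, overlapping groups and a log2 change of 0.074 with an SE of 0.0954 (limma adjusted p = 0.510). Whether the changes of Tuba3a and Tuba3b differ was not tested. The coding sequences of Tuba3a and Tuba3b were 97.0% identical over 1350 bases, and the transcript of Tuba3a matched Tuba3b over 99.6% of its length at 95% identity or more. Reads could be split between the copies, so each level is uncertain; the sources used here do not give how the authors treated such reads. An exon of Tuba3a also overlaps 4930417O13Rik on the opposite strand, and whether counting used the strand is not given.

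In the mouse genome Slc25a31 and Pdha2 lie on chromosome 3, Brdt on 5, Tuba3a and Tuba3b on 6, Ldhc on 7, Pgk2 on 17, and Taf7l and Nxf2 on X (GENCODE M21). None of the other 7 measured members shared 100 bases or more at 95% identity with another gene. Identity of coding sequence to the widely expressed counterparts was 63.2% to 66.3% for Slc25a31, Taf7l, Brdt and Nxf2. It was 73.2% between Ldhc and Ldha, 79.3% between Pgk2 and Pgk1, 75.6% between Pdha2 and Pdha1, and 83.6% to 85.3% between the Tuba3 and Tuba1 genes. Pgk2 and Pdha2 have 1 exon each in the annotation, whereas the other measured members have 5 to 22.

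The counterparts were far more abundant than the members and also changed. Of the 13 counterparts reported, all were tested, 6 were called higher and 5 lower, 84.6% in all against 67.2% of the genes tested, with a median log2 change of -0.096 against -0.015 over all genes tested. The direction matched between member and counterpart in some families and not in others.

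Among the ADP/ATP carriers, Slc25a4 rose, being at 121 ± 1.99 RPKM in control and 274 ± 22.4 RPKM in Hnrnpk siRNA libraries (SD, n = 2 each; log2 change 1.17, limma adjusted p = 1.19e-06). Slc25a5 fell, being at 455 ± 1.13 RPKM in control and 395 ± 9.81 RPKM in Hnrnpk siRNA libraries (SD, n = 2 each; limma adjusted p = 0.0217), a call that was lost with no filter on low values and without either control replicate or without Hnrnpk siRNA replicate 1. The share of Slc25a31 in the summed RPKM of the 3 genes was 0.203% and 0.248% in control libraries and 1.57% and 1.39% in Hnrnpk siRNA libraries. Slc25a4 and Slc25a5 held all the rest in each library.

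Taf7 rose with Taf7l, by a smaller amount, and stood at 61.8 ± 0.344 RPKM in control and 93.7 ± 0.923 RPKM in Hnrnpk siRNA libraries (SD, n = 2 each; log2 change 0.60, limma adjusted p = 1.95e-05). Taf7l made up 0.864% and 1.009% of the pair in control libraries and 5.69% and 5.27% in Hnrnpk siRNA libraries, the highest share that any member reached. Brd2 and Brd3, widely expressed relatives of Brdt, went opposite ways, with Brd2 at a log2 change of 0.70 (limma adjusted p = 7.81e-06) and Brd3 at -0.40 (limma adjusted p = 0.000427). Brd2 stood at 58.2 ± 0.971 RPKM in control and 94.9 ± 1.57 RPKM in Hnrnpk siRNA libraries, and Brd3 at 23.1 ± 0.0956 and 17.4 ± 0.596 RPKM (SD, n = 2 a group).

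Nxf1 rose, being at 97.6 ± 0.399 RPKM in control and 116 ± 1.68 RPKM in Hnrnpk siRNA libraries (SD, n = 2 each; log2 change 0.25, limma adjusted p = 0.00427), and Nxf2 went from 0.211% and 0.233% of the pair to 0.627% and 0.679%. Ldha, the form known for making lactate, fell, being at 466 ± 13.9 RPKM in control and 178 ± 13.2 RPKM in Hnrnpk siRNA libraries (SD, n = 2 each; log2 change -1.39, limma adjusted p = 5.50e-07). Ldhb was called higher at 0.23 (limma adjusted p = 0.0421), a call lost with no filter on low values, under quantile normalization, with limma without trend, without control replicate 2 and without Hnrnpk siRNA replicate 2 (0.14 in the last 2 cases). The share of Ldhc in its family was 0.0818% and 0.0677% in control libraries and 0.0212% and 0.0177% after Hnrnpk siRNA.

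Pgk1 fell, with a log2 change of -0.52 (limma adjusted p = 7.56e-05), and Pdha1 rose, with a log2 change of 0.55 (limma adjusted p = 5.77e-05). Pgk1 shares 68.8% of its transcript with other genes, which makes its level of 29.5 ± 0.308 RPKM in control libraries (SD, n = 2) uncertain. Pdha1 shares 18.5% with Map3k15, which lies on the opposite strand, and Brd2 shares 7.99% with H2-DMa in the same way. Part of the Tuba1a, Tuba1b, Tuba1c, Ldha, Ldhb and Slc25a5 transcripts is likewise shared with other genes, 55.04% to 90.9% of their length. Tuba1a fell with Tuba3a, with log2 changes of -0.73 and -0.63, while Tuba1b and Tuba1c were not called at -0.096 and -0.10. Both Tuba1b and Tuba1c were called lower under quantile normalization, at -0.29 and -0.22. Tuba3a and Tuba3b together held 5.04% and 3.94% of the 5 tubulin genes in control libraries and 3.69% and 3.54% after Hnrnpk siRNA. With 2 libraries a group, an exact two-sided permutation test of a share cannot reach a p below 1 in 3, so the shares are given as descriptions.

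**Figure D4:**
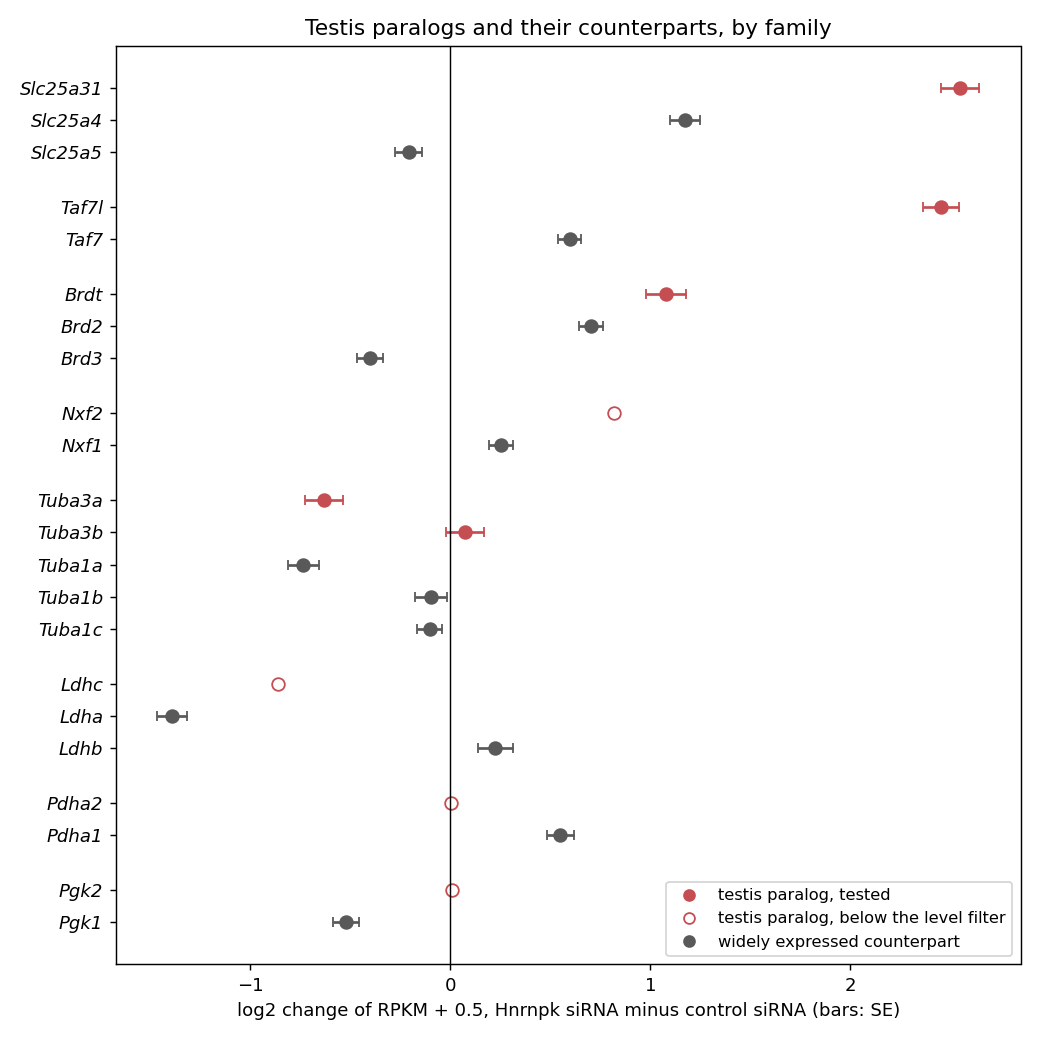
Log2 change of RPKM + 0.5 (Hnrnpk siRNA minus control siRNA, bars: SE from limma) of each testis paralog (red; open circles lie under the level filter and have no test) and its widely expressed counterparts (grey), by family. Slc25a31 and Taf7l stand at the right, and Ldha stands farthest left at -1.39.

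**Figure D5:**
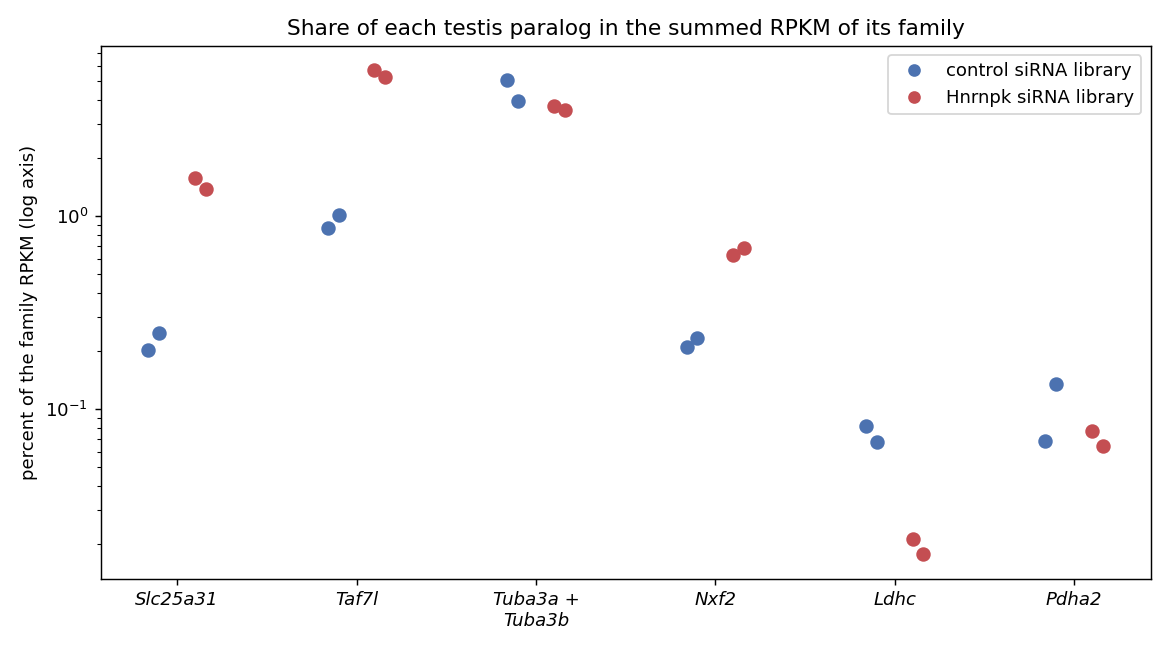
Percent of the summed family RPKM (log axis) held by each testis paralog in each control siRNA (blue) and Hnrnpk siRNA (red) library; Pgk2 is left out because it is listed at 0 in 3 libraries, and Brdt is not shown. The share of Taf7l goes from about 1% to over 5%, and all others except the tubulins stay under 2%.

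Other testis forms of common proteins gave no single direction. Of 35 names, 33 were in the table, 5 of them at 0 in all libraries, and 17 were tested. Of these 4 were called higher and 8 lower, 70.6% against 67.2% of the genes tested, with a median log2 change of -0.086. Cox7b2, a subunit of cytochrome c oxidase, rose, being at 0.403 ± 0.0187 RPKM in control and 1.65 ± 0.0692 RPKM in Hnrnpk siRNA libraries (SD, n = 2 each; log2 change 1.25), and Eno4, an enolase of sperm, had a log2 change of 0.61. Like Brdt, Cox7b2 passed the level filter only through its level after Hnrnpk siRNA. Ybx2, an RNA-binding protein of germ cells, fell, being at 10.9 ± 1.96 RPKM in control and 5.48 ± 0.240 RPKM in Hnrnpk siRNA libraries (SD, n = 2 each; log2 change -0.92). Rbmxl2 (-0.67), Cyct, the testis cytochrome c (-0.62), and Psma8, a proteasome subunit of meiotic cells (-0.51), also fell. By limma, adjusted p reached at most 0.000322 for these 6 genes. Shared sequence was not examined for this list.

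Genes of the machinery that silences germ cell genes were measured as transcripts. Of 20, all were tested, 3 were called higher and 8 lower, 55% against 67.2% of the genes tested, with a median log2 change of -0.11. Setdb1 and Max were among the 9 not called, with log2 changes of -0.12 and 0.039. Mga was called lower at -0.19, just under the threshold (limma adjusted p = 0.0479). The 6 genes described next are the called genes with the lowest p. The DNA methyltransferases Dnmt3b, Dnmt3a and Dnmt1 fell, with log2 changes of -1.14, -1.09 and -0.65. Control libraries held them at 87.6 ± 8.42, 16.9 ± 3.18 and 107 ± 1.55 RPKM, and Hnrnpk siRNA libraries at 39.3 ± 2.14, 7.61 ± 0.0352 and 68.2 ± 2.59 RPKM (SD, n = 2 a group). Uhrf1, which brings DNMT1 to newly copied DNA, had a log2 change of -0.61, and Ehmt2, an H3 lysine 9 methyltransferase, one of -0.65. E2f6 rose, being at 11.8 ± 0.751 RPKM in control and 20.02 ± 0.277 RPKM in Hnrnpk siRNA libraries (SD, n = 2 each; log2 change 0.74). By limma, adjusted p reached at most 2.09e-05 for these 6 genes. Whether these levels had a part in the values of the members was not tested.

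Markers of other cell types were read beside the members. Pluripotency markers were present throughout, with summed levels of 1386 to 1491 RPKM in control and 1480 to 1528 RPKM in Hnrnpk siRNA libraries over 6 genes. These near-equal sums held changes in opposite directions: Nanog was called higher, with a log2 change of 0.82, and Sox2 lower, at -0.53, while the other 4 were not called. Of 5 markers of meiotic germ cells, 3 were tested. Sycp3 and Sycp1 were called higher, with log2 changes of 0.68 and 0.90, and Dmc1 lower, at -1.05. Piwil1 and Spo11 lay under the filter, at no more than 0.305 RPKM in any library. For both, the Hnrnpk siRNA libraries lay below the controls. The summed level of the 5 was 11.7 to 12.3 RPKM in control and 11.2 to 12.7 RPKM in Hnrnpk siRNA libraries. Of the 4 spermatogonial markers, Ddx4 rose, with a log2 change of 1.28 (limma adjusted p = 1.51e-06). Stra8 was called lower at -0.18, just under the threshold (limma adjusted p = 0.0481). Kit was not called and Zbtb16 lay under the filter. The 4 markers summed to 42.8 to 47.8 RPKM in control and 55.4 to 57.0 RPKM in Hnrnpk siRNA libraries. Haploid germ cell markers were near 0, with no value above 0.141 RPKM and Prm1 and Acrv1 at 0 in every library. Of 4 Sertoli markers named, 3 were measured, and these summed to at most 0.549 RPKM in any library. Leydig markers summed to 12.4 to 13.2 RPKM in control and 7.89 to 9.14 RPKM in Hnrnpk siRNA libraries, mostly from Insl3, with Hsd3b1 at 0. Fibroblast markers summed to 7.89 to 9.37 RPKM in control and 3.96 to 4.14 RPKM in Hnrnpk siRNA libraries. Nearly all of this was Thy1 and Col1a1, both called lower, with log2 changes of -1.24 and -0.42. Col3a1 and Postn stood at no more than 0.0118 RPKM in any library. The part of these markers in the values of the members was not tested.

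Tested genes outside the members were ranked by their likeness to Slc25a31. The measure was Euclidean distance over the 4 libraries, between log2(RPKM + 0.5) values relative to each gene's own control mean. The nearest were Phlda1 (distance 0.0875), Aqp3 (0.146), Tinagl1 (0.216), Gata3 (0.236) and 8030411F24Rik (0.243). Phlda1 went from 4.85 and 5.45 to 34.4 and 33.1 RPKM. The last of these was listed at 0 in both control libraries and at 2.15 and 2.24 RPKM after Hnrnpk siRNA. None of them is on the list of other testis forms used here. The other members could not appear, because they were left out before the ranking. Nothing is read from it on how alike the members are.

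Whether a promoter E-box went with a higher level was described over the 8803 tested genes that had a promoter window under their symbol. The tested members were not left out of these genes. Of 917 with an E-box, 37.5% were called higher, against 31.3% of the 7886 without. A log2 change of at least 1 among the higher calls was reached by 4.47% and 3.61%, and the median log2 changes were 0.045 and -0.025. The 4.47% came from 41 genes, among them Slc25a31, Taf7l and Brdt, so it is not independent of the members. For the E2F-like heptamer, 32.9% of 750 genes with it and 31.9% of 8053 without it were called higher. Of the 4 members with an E-box, 3 were called higher and Nxf2 was not tested under the filter, and since the motif was chosen with their values known, nothing is read from that count.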

How the data were processed

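RNA-seq of 4 libraries, 2 a group by their titles, was analysed from 1 table of RPKM per gene with a column for each library, as deposited by the authors. The labels describe the RNA both as rRNA depleted and as poly(A) selected. BWA, SAMtools and mm9 are named, without versions, in the submitters' processing notes; the sources used here do not give the counting tool, the annotation or the handling of reads with several matches. Whether replicates were separate cultures is not stated beyond their being called biological replicates, so p-values measure the spread between these libraries.

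Values were fitted as log2(RPKM + 0.5) by limma 3.58.1 (R 4.3.3; trend in the variance, two-sided moderated tests, 7.47 prior degrees of freedom) for the 12486 genes whose mean reached 0.5 RPKM; the fit was tested on simulated data. RPKM values are not counts, so no count model was used. Depth was estimated from the steps of low values in genes with 1 exon, using GENCODE M21 lengths on GRCm38, which may differ from the authors' gene models; libraries 2 to 4 came to 0.982, 0.891 and 0.882 of the first (control replicates, then Hnrnpk siRNA), and absolute depth is known only within a factor of 2. Exons, coding sequences and shared transcript stretches (BLAST 2.17.0, 95% identity over 100 bases) came from GENCODE M21. Alternatives were the added value, the filter, scaling, the trend, the replicate block and leaving out each library. The members and lists were chosen with earlier results of these data known. Results for 1 gene of the lists, and those that need it, are not reported here. Named genes are Hnrnpk, all members and the other counterparts, and up to 6 called genes with the lowest p of the 2 other lists. Also named are the 5 tested genes outside the members that were nearest in pattern to the called member with the largest log2 change. Marker genes, Setdb1, Max, Mga, and genes named only as overlapping, were added to these.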

Additional observations from a re-analysis of the deposited data

How the results depend on the processing

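The calls of Slc25a31, Taf7l and Tuba3a, and the absence of a call for Tuba3b, were the same under every alternative run, and Brdt was called under each in which it passed the filter; a mean of at least 1 RPKM left it out. The change of Tuba3b, not called, ranged from -0.01 to 0.15 when 1 library was left out. With no filter on low values, 2 members rather than 1 were called lower, because Ldhc was then tested, and 4 rather than 3 were called higher, because Nxf2 was. With the replicate number as a block, 8622 genes were called rather than 8396. The same-numbered libraries showed a correlation of deviations of 0.0267, which does not settle whether they were handled together. Leaving out 1 library at a time gave 3155 to 4033 genes called higher, against 4025, and 3552 to 4502 called lower, against 4371. In these fits 1 group holds a lone library, which is assumed to vary like the other group, so calls kept or lost in them are a weak check. The difference in the share of Tuba3a and Tuba3b, -0.877 percentage points, was -0.327 without control replicate 1, and leaving out libraries from the shares was chosen after seeing the data. No called value of Hnrnpk, the members, the counterparts or the other named genes outside the markers and Mga changed direction under any alternative run. Directions of the marker genes and of all remaining genes were not compared. Depth limits Pdha2 and Pgk2, which had at most 35.5 estimated units in any library.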
